A study of Mus musculus with 2 samples.

Results

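The A20, ABIN, cIAP and linear ubiquitin regulators are 10 genes of the ubiquitin machinery that surrounds NF-kB signalling, namely Tnfaip3, Tnip1, Tnip3, Cyld, Rnf31, Rbck1, Birc2, Birc3, Traf1 and Traf2. They were chosen by gene symbol, and each symbol was carried by 1 probe set, which gave 10 of the 22014 genes on the array. Bone-marrow-derived macrophages (BMDM) were grown for 7 days in medium with L929 culture supernatant and then received poly(I:C), a double-stranded RNA made in the laboratory, at 5 µg/ml for 9 h. WT cells and Oasl1-/- cells, which lack a gene of the oligoadenylate synthetase-like family, both came from the C57BL/6J strain, both received poly(I:C), and untreated cells were not analysed here. Total RNA of 3 samples was mixed for each genotype and measured on 1 Affymetrix Mouse Gene array, so the 2 arrays carry no spread between cultures, no difference was tested, and p-values cannot be given.

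Signalling complexes below TNF receptors, Toll-like receptors and RNA sensors are assembled with ubiquitin chains. TRAF2 recruits the cIAP ligases to receptors, the cIAPs attach ubiquitin chains to RIPK1 and other proteins, and the linear ubiquitin chain assembly complex (LUBAC), built from HOIP, HOIL1 and SHARPIN, adds head-to-tail chains that bring in the IKK kinases and so activate NF-kB. A20 and CYLD remove or block these chains, and ABIN1, the product of Tnip1, binds ubiquitin and helps A20. Several of these genes, among them Tnfaip3, Tnip1, Tnip3, Birc3, Traf1 and Cyld, are known NF-kB targets. Through A20, ABIN1 and CYLD the pathway thus induces its own restraint.

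The promoters of the regulators were searched for motifs of NF-kB and of the interferon-stimulated response element, because poly(I:C) activates both routes. RefSeq promoter windows of the GRCm38.p6 build, from 250 bases before to 50 bases after an annotated start, were found for all 10 genes, 13 windows in all. Searched on both strands were an NF-kB pattern of GGG and TTCC with any 3 bases between them, the NF-kB consensus by its name, which overlaps the pattern at many matches, and GAAA followed by any 2 bases and GAAA again, the core of the interferon-stimulated response element. Either NF-kB motif was present for 5 of the 10 genes (Tnfaip3, Tnip1, Tnip3, Cyld and Traf2). The share was 11.9% of the 5044 genes that were above background on the arrays and had a window, and 8.46% of all 32851 windows. Taken singly, the NF-kB pattern was in 5.56% of all windows, the NF-kB consensus in 4.51% and the interferon element core in 3.44%. By gene, in the same order, 7.91%, 6.34% and 4.94% of the 5044 genes had them, and 4, 4 and 1 of the 10. Stretches with matches of the A20 and ABIN genes, of Cyld and of Rbck1 are shown, 5′ to 3′ on the strand of the gene. They hold NF-kB motifs of the A20, ABIN and Cyld genes and the single interferon element among the 10 genes. The Tnfaip3 matches after the start and in its second window are not printed. Capitals mark every match of any of the 3 motifs within the printed stretches. Tnfaip3 is at chr10:19015411-19015660 (minus strand), Tnip1 at chr11:54962957-54963190 (minus), Tnip3 at chr6:65590148-65590397 (plus), Cyld at chr8:88696863-88696892 (plus) and Rbck1 at chr2:152332427-152332456 (minus).
Tnfaip3: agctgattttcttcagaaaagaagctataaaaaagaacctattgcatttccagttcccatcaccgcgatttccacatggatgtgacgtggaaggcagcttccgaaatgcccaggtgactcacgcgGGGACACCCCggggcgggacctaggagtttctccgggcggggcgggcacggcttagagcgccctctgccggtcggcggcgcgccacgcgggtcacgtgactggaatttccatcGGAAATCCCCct
Tnip1: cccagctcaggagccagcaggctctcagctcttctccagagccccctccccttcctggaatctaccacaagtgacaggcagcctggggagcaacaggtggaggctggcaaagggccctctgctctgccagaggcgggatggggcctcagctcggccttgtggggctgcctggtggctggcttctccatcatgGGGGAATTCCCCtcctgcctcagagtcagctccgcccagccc
Tnip3: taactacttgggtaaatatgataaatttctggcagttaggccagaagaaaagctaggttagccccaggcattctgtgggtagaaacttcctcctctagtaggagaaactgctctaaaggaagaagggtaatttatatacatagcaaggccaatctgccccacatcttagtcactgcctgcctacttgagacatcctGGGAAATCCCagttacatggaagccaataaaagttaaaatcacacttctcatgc
Cyld: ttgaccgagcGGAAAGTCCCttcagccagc
Rbck1: ggactgccacTTTCACTTTCtcttccgggg

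In the Tnip1 promoter the overlapping matches form GGGGAATTCCCC, a palindrome that begins 58 bases before the start and matches on both strands. The Tnip3 match begins 54 bases before the start, and Tnfaip3 has matches that begin 125 and 12 bases before it, with 1 more after the start, and its second window has a match that begins 90 bases before that start. The Cyld match begins 155 bases before its start. The second Rbck1 window has the only match of the interferon element core, on the opposite strand, beginning 21 bases before that start. The Traf2 match lies after its start, and no motif letters were found in the windows of Traf1, Birc2, Birc3 and Rnf31. These matches describe the sequence and do not show binding.

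**Figure D1:**
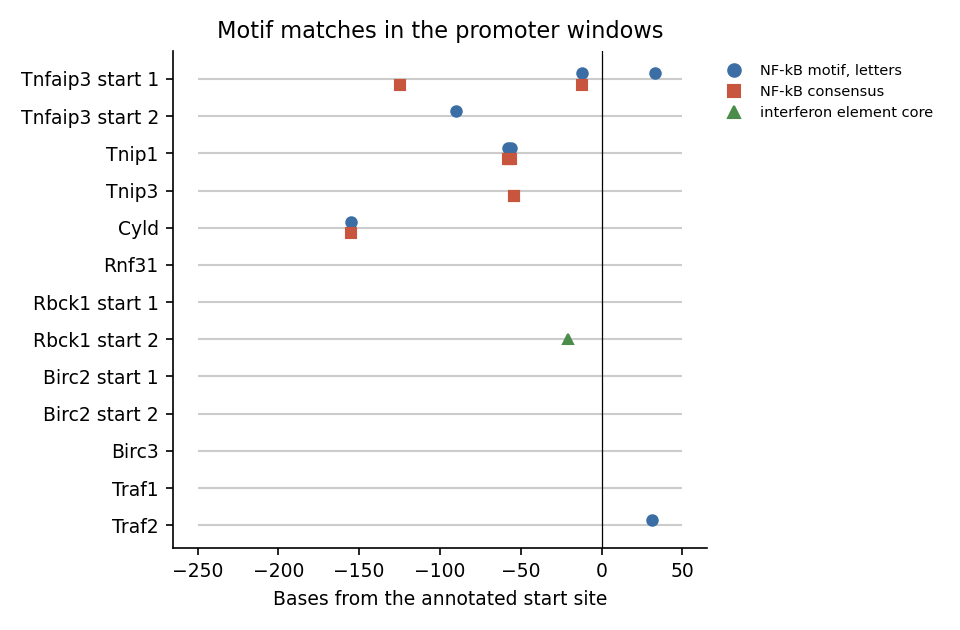
Motif matches in the 13 promoter windows of the 10 regulators. The x axis gives the first base of each match in bases from the annotated start, circles mark the NF-kB pattern, squares the NF-kB consensus and the triangle the interferon element core. The matches of Tnip1 and Tnip3 begin 58 and 54 bases before the start.

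All 10 regulators had a signal above background on both arrays. Background was taken as the 95th percentile of the negative control probe sets of each array, which is called the floor here and was 7.75 (log2) for WT and 7.68 for Oasl1-/-. Of the 22014 genes, 6376 were above it on at least 1 array, and shares of genes refer to these unless another number is given. Rbck1 was nearest the floor, 0.43 above it in WT and 0.70 in Oasl1-/-, and Tnip3 was farthest, 4.12 and 4.10 above it. No signal of one gene is set against that of another, since probe sets bind their targets unequally. Each difference is the Oasl1-/- signal minus the WT signal, both log2.

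**Figure D2:**
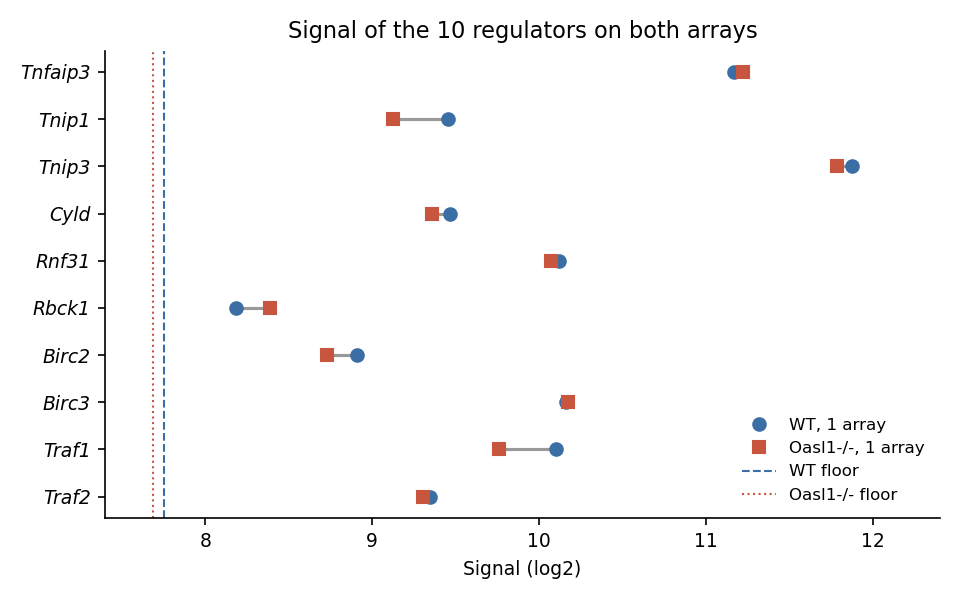
Log2 signal of the 10 regulators on the WT array (circles) and the Oasl1-/- array (squares), 1 array each, with the floor of each array as a vertical line. The symbols nearly coincide for Tnfaip3, Birc3, Rnf31 and Traf2 and lie farthest apart for Traf1 and Tnip1.

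None of the 10 regulators differed by 1.5-fold in either direction. Of all genes above the floor, 0.361% were at least 1.5-fold higher in Oasl1-/- and 0.518% at least 1.5-fold lower, so that 0 of 10 is near the background. At a threshold of 1.2-fold, 2 regulators were lower, Traf1 and Tnip1, and none was higher, while 8.91% of all genes were at least 1.2-fold lower and 2.65% at least 1.2-fold higher. A difference below 0 was seen for 7 of the 10, near the 63.5% of all genes below 0. The median difference of the 10 was -0.07, and that of all genes above the floor was -0.04. When the differences were centred on the median gene, 50.0% of all genes were below 0, 5.76% were at least 1.2-fold lower and 4.31% at least 1.2-fold higher. Fewer cells that carry a transcript and less of it per cell cannot be told apart in such mixed RNA.

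**Figure D3:**
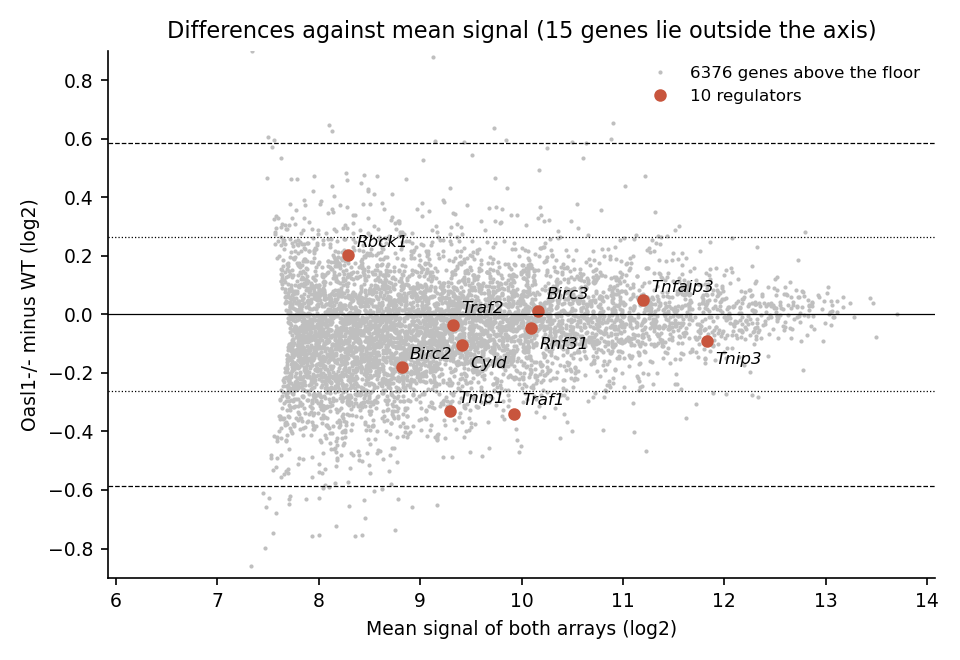
Difference Oasl1-/- minus WT (log2) against the mean log2 signal of both arrays for the 6376 genes above the floor (grey) and the 10 regulators (red, named). Dotted and dashed lines mark 1.2-fold and 1.5-fold, and 15 genes lie outside the vertical axis. Traf1 and Tnip1 are the regulators below the lower 1.2-fold line.

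The A20 gene had nearly the same signal in both genotypes. Tnfaip3 (NM_009397, chromosome 10, positions 18720716 to 18735216 in the NCBIM37 build), which encodes the ubiquitin-editing enzyme A20, had a signal of 11.17 in WT and 11.22 in Oasl1-/-. It was thus 0.05 (log2), or 1.03-fold, higher. Genes with a mean signal within 0.5 of its own numbered 644, and 63.2% of them had an absolute difference at least as large.

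The ABIN genes were both lower in Oasl1-/- than in WT, Tnip1 by more than Tnip3. Tnip1 (NM_021327, chromosome 11, positions 54713832 to 54839078), the gene of ABIN1, which carries A20 to its substrates, had 9.46 in WT and 9.12 in Oasl1-/-. Its difference was -0.33, or 1.26-fold lower, and 4.49% of all genes had a difference as low. Among the 1725 genes of like mean signal, whose median difference was -0.05 with a robust SD of 0.13, 4.12% had an absolute difference at least as large. The probe set of Tnip1 spans 125247 bases, whereas the RefSeq gene is 52170 bases long, and its span covers most of the span of the Anxa6 probe set on the same strand. Anxa6 had 10.90 in WT and 10.98 in Oasl1-/- (difference 0.08), and whether the Tnip1 probe set takes up its transcript was not tested. Of the 44 probes of the Tnip1 probe set, 41 match the transcript directly by the deposited annotation. Tnip3 (NM_001001495, chromosome 6, positions 65540392 to 65584034), the gene of ABIN3, had 11.88 in WT and 11.79 in Oasl1-/-. The difference of -0.09, or 1.06-fold lower, was reached in size by 29.2% of the 401 genes of like signal, and the Tnip1 difference minus the Tnip3 difference was -0.24.

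The deubiquitinase gene Cyld was slightly lower. Cyld (NM_001128169, chromosome 8, positions 91220974 to 91272367), whose enzyme cuts lysine-linked and linear chains, had 9.46 in WT and 9.36 in Oasl1-/-. The difference was -0.10, or 1.08-fold lower, and 45.3% of the genes of like signal had an absolute difference at least as large.

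The LUBAC genes differed from each other, with Rbck1 higher and Rnf31 nearly equal. Rnf31 (NM_194346, chromosome 14, positions 56210627 to 56222508), which encodes HOIP, the catalytic subunit, had 10.12 in WT and 10.07 in Oasl1-/-. The difference was -0.05. Rbck1 (NM_019705, chromosome 2, positions 152142064 to 152158371), which encodes the HOIL1 subunit, had 8.19 in WT and 8.39 in Oasl1-/-. Its difference of 0.20, or 1.15-fold higher, was the highest of the 10, and 5.10% of all genes had one as high. Among genes above the floor, the dim ones had mostly lower signals in Oasl1-/-. The median difference was -0.08 among the 2324 genes of like mean signal as Rbck1. Rbck1 thus stood 0.28 above its like genes, whose robust SD was 0.16. Without sign, 29.1% of those genes had a difference at least as large as that of Rbck1. Sharpin, the gene of the remaining subunit and no member, had 9.83 in WT and 9.77 in Oasl1-/-.

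Of the cIAP genes, which lie next to each other on chromosome 9, Birc3 had values within 0.01 of each other and Birc2 was lower. Birc3 (NM_007464, positions 7848699 to 7873024), which encodes the inducible ligase cIAP2, had 10.16 in WT and 10.17 in Oasl1-/-. The difference was 0.01, or 1.01-fold higher. Birc2 (NM_007465, positions 7818227 to 7835269), which encodes cIAP1, had 8.91 in WT and 8.73 in Oasl1-/-. This is a difference of -0.18, or 1.13-fold lower. Of the 2035 genes as bright as Birc2, 28.9% had an absolute difference at least as large. A further probe set named C330006D17Rik, a name that RefSeq lists as a synonym of Birc2, lies between the probe sets of the 2 genes at positions 7836687 to 7837064. It had 7.54 in WT and 7.27 in Oasl1-/-, below the floor on both arrays, so no difference is read from it. The cIAP genes are close paralogs, and whether their probe sets share targets was not tested.

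Of the adaptor genes, Traf1 was lower in Oasl1-/- and Traf2 was nearly equal. Traf1 (NM_009421, chromosome 2, positions 34798776 to 34817292), an inducible adaptor that binds TRAF2 and the cIAPs, had 10.10 in WT and 9.76 in Oasl1-/-. Its difference of -0.34, or 1.27-fold lower, was the lowest of the 10, and 4.31% of all genes had one as low. Among the 1306 genes of like signal, with a median of -0.03 and a robust SD of 0.13, 2.99% had an absolute difference at least as large. Traf2 (NM_009422, chromosome 2, positions 25373502 to 25402414), the adaptor that brings cIAPs to receptors, had 9.34 in WT and 9.31 in Oasl1-/-. The difference of Traf2 was -0.04 and became 0.01 when a loess trend on mean signal was removed, so its sign depends on the scaling, and the Traf1 difference minus the Traf2 difference was -0.30.

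The known NF-kB targets among the regulators had unequal differences, with Traf1 and Tnip1 lower by about the same amount Tnfaip3 and Birc3 within 0.05 of 0, and Tnip3 and Cyld between them at -0.09 and -0.10. Of these 6, the windows of Tnip1, Tnfaip3, Tnip3 and Cyld hold NF-kB motif letters and those of Traf1 and Birc3 do not. Across the scalings tried, the difference of Traf1 ran from -0.34 to -0.30 and that of Tnip1 from -0.33 to -0.28. Rbck1 ran from 0.18 to 0.29 and reached 1.2-fold higher with quantile normalization and with the loess trend removed. Birc2 ran from -0.22, with its further probe set averaged in, to -0.11, and Tnfaip3 from 0.05 to 0.09.

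**Figure D4:**
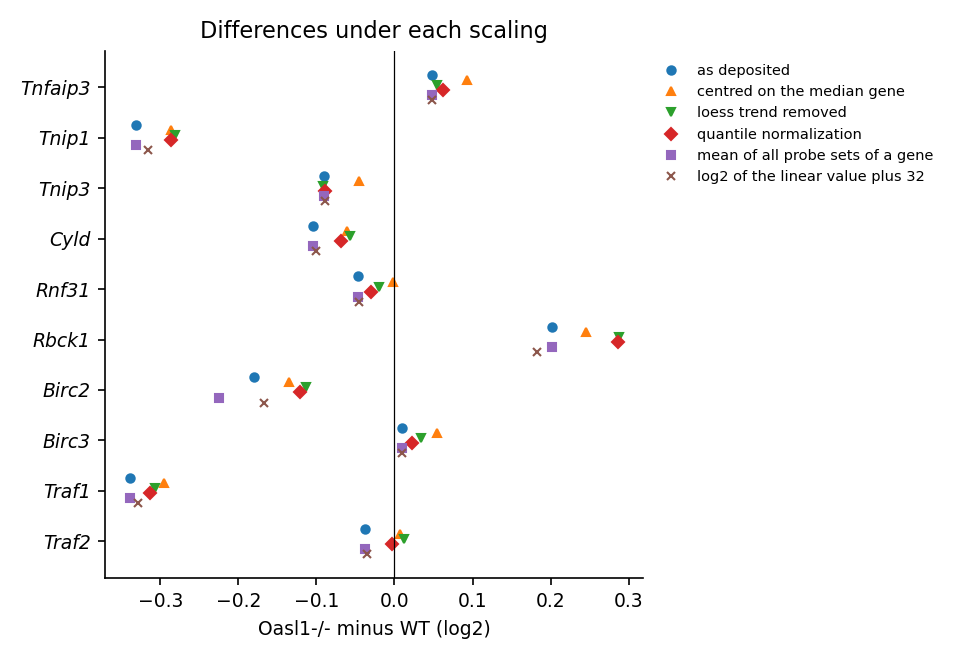
Difference Oasl1-/- minus WT (log2) of the 10 regulators under 6 ways of scaling or summarising the values, 1 symbol for each. Traf1 and Tnip1 stay between -0.34 and -0.28, Rbck1 stays above 0, and Traf2 crosses 0.

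The other genes of the pathway had small differences. Of 47 genes measured in 4 lists of partners, 39 were above the floor, 25 of them lower, a share near the 63.5% of all genes, and none was 1.5-fold different in either direction. Their median was -0.04, the same as that of all genes above the floor, and 2 were at least 1.2-fold lower and 0 at least 1.2-fold higher, beside 8.91% and 2.65% of all genes. For 7 of the 39 the annotated position of the probe set and the RefSeq gene are on different chromosomes, among them Ubb, Ube2n and Ube2v1.

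Of 10 genes above the floor that encode A20 and ABIN partners or related deubiquitinases, 6 were lower, with a median of -0.02. The largest differences were those of Zranb1, a deubiquitinase related to A20 (8.30 in WT and 8.06 in Oasl1-/-, difference -0.24), and Optn, the ubiquitin-binding optineurin (8.22 and 8.03, difference -0.18). Of 7 linear ubiquitin genes, 4 were lower, with a median of -0.04. Otulin, the deubiquitinase of linear chains, had 7.99 and 7.88, and Ubb, a ubiquitin gene, had 12.60 and 12.71 at a probe set on chromosome 14 in place of its own chromosome 11.

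Of 11 genes of the receptor complex with its TRAF and IAP proteins, 8 were lower, with a median of -0.09. Fadd, the death domain adaptor, had 8.12 in WT and 7.84 in Oasl1-/- (difference -0.28), and Tnfrsf1b, the gene of TNF receptor type II, which binds TRAF2 and TRAF1, had 10.98 and 10.74, a difference of -0.24. Of 11 genes of E2 enzymes and kinases, 7 were lower, with a median of -0.03, or -0.09 over the 7 whose probe set lies on the chromosome of the gene. Ube2d1, a ubiquitin-conjugating enzyme, had 8.89 and 8.60, a difference of -0.30, and Chuk, the IKK alpha kinase, had 8.97 and 8.76, a difference of -0.22.

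The NF-kB subunits and IkB proteins, set beside the regulators because many are targets of the same factor, were lower for 10 of 11 genes, beside 63.5% of all genes, with a median of -0.15 against -0.07 for the regulators. Nfkbid counts among the 11 through its WT signal alone. Of the 10 genes above the floor on both arrays, 9 were lower, with a median of -0.14. Of all genes above the floor on both arrays, 63.9% were lower. After centring on the median gene, 8 of the 11 were lower, beside 50.0% of all genes, and the median was -0.11. Only Nfkbiz, an atypical IkB protein, passed 1.2-fold, with 9.91 in WT and 9.46 in Oasl1-/-, and Nfkbid, above the floor in WT alone (7.91 and 7.66), was at least 1.17-fold lower. The difference between the lists was not tested, and they were chosen with these data known.

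**Figure D5:**
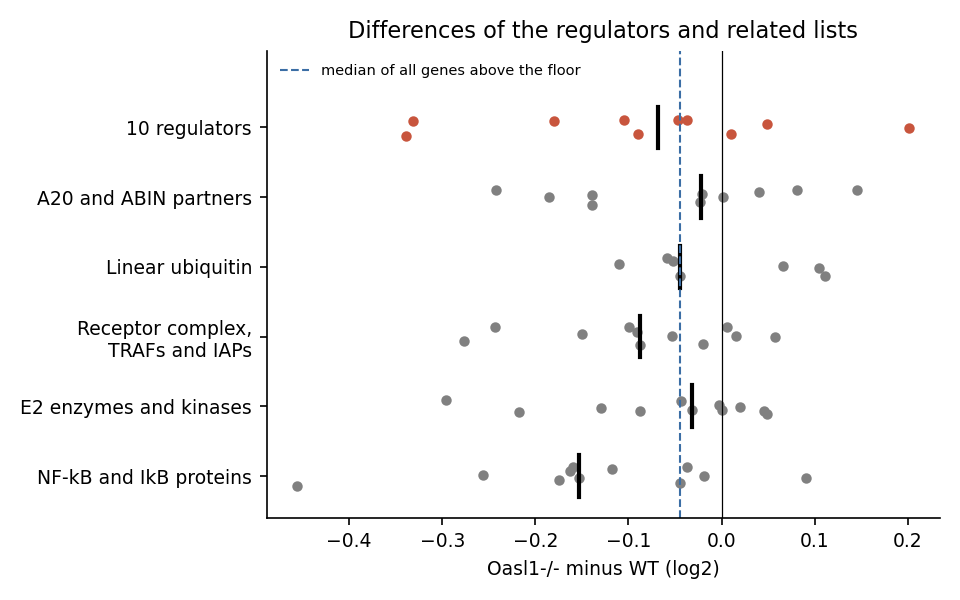
Difference Oasl1-/- minus WT (log2) of each gene above the floor in the 10 regulators (red), the 4 partner lists and the NF-kB and IkB proteins (grey). Black bars are list medians, from -0.15 to -0.02, and the dashed line is the median of all genes above the floor, -0.04.

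The targeted gene Oasl1 had 12.59 in WT and 11.13 in Oasl1-/-, 2.76-fold lower, and since the part of the transcript that the deletion removes is not known here, this checks the labels only in part. All 10 macrophage markers were above the floor on both arrays (9.51 to 12.85 in WT and 9.54 to 12.88 in Oasl1-/-), and none of the T cell (6 measured), B cell (5) and fibroblast (5) markers was. Of 8 neutrophil markers, 7 had higher values in Oasl1-/-, with 6 of the 8 below the floor on both arrays. Without a floor, 46.7% of all 22014 genes were lower in Oasl1-/-. Ngp had 6.90 and 7.79, above the floor in Oasl1-/- alone and at least 1.03-fold higher, and Csf3r had 9.07 and 8.68. The summed signal of these 8 was 9.90 in WT and 10.04 in Oasl1-/- on the log2 scale. Below the floor on both arrays, S100a9 was at 5.43 and 6.31 and Elane at 4.70 and 5.34. Camp, at 5.64 and 5.83, and Mpo, at 5.81 and 5.85, were also below it and differed less. Of 5 dendritic cell markers, which activated macrophages share in part, 2 were above the floor, with differences of 0.06 and 0.09. The part of other cells in the differences of the regulators was not tested.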

How the data were processed

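The authors deposited log2 signals per probe set for 1 array of each genotype, made with GCOS and RMA per the submitters' processing notes, with no version. The sources used here do not give whether RMA was run on both arrays at once. RMA shrinks differences at dim probe sets, mixing RNA hides the spread between cultures, and the number of arrays limits the precision. A second deposited table of log2 values differed by 0 in every row. Symbols were updated through RefSeq accessions, symbols and unique synonyms, 10249 probe sets without a symbol and 2 with several were left out, and of several probe sets of a gene the one with the highest mean was kept. The floor is the 95th percentile of 5267 negative control probe sets. Array coordinates are those of the deposited table, whose transcript descriptions name NCBIM37. Promoter sequences are from RefSeq (GRCm38.p6). A protein comparison of paralogs was planned and not run. A robust SD is the scaled median absolute deviation.

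The members, lists, thresholds and alternatives were chosen with earlier results of these data known. All 10 members and Oasl1 were named, and from each partner list and the NF-kB list up to 4 genes past 1.5-fold or, where there were none, the 2 farthest from 0 above the floor. Anxa6, Tnip2, Sharpin, Ngp, S100a9, Csf3r, Elane, Camp and Mpo were named after their values were seen. The counting of calls was tested on simulated data, which checks the counting only and cannot show the spread between cultures. Tools were statsmodels 0.14.6, pandas 2.3.3, NumPy 2.4.6 and Matplotlib 3.10.9 under Python 3.11.15.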

Additional observations from a re-analysis of the deposited data

How the results depend on the processing

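Alternatives were centring, loess (span 0.3), quantile normalization, averaged probe sets, an offset of 32 added to the linear values, the second table, other floors and, added after seeing the data, leaving out probe sets off the chromosome of the gene. The median difference of the 10 regulators ran from -0.07 to -0.02 over 11 settings. No regulator was 1.5-fold different under any of them, while, as deposited, 2 were different at a threshold of 1.2-fold and 0 at 2-fold. With loess and with quantile normalization Rbck1 also passed 1.2-fold, as the 1 regulator higher. Traf1 and Tnip1 stayed at least 1.2-fold lower under all of them. Traf2 changed sign under 2 settings, centring and loess, and no other regulator did. Without probe sets off the chromosome of the gene, the median of the E2 enzymes and kinases was -0.09. The medians of the A20 and ABIN partners and of the linear ubiquitin genes became 0.02 and 0.00 after centring, and that of the E2 enzymes and kinases 0.01. With centring, loess or quantile normalization, 0 genes of the receptor complex list and 0 of the E2 enzymes and kinases were 1.2-fold different. As deposited, each of these lists had 1. The shares of all genes at least 1.2-fold lower and higher were 4.58% and 5.11% with the loess trend removed and 4.99% and 4.78% with quantile normalization. The share of all genes below 0 also moved with the floor. It was 63.5% with the floor used here, 55.1% with the floor at the array median and 46.7% with no floor. The median differences of all genes were -0.04, -0.02 and 0.02 in that order. The cause of these movements was not tested. No paired analysis was possible because each genotype has 1 array. Signal over background limits the difference of Rbck1, 0.43 above the floor in WT.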
